A study of Homo sapiens with 12 samples.

Results

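Calcium handling and calcineurin signalling were examined through 34 genes in cells that overexpressed the calcium-permeable channel TRPML3. The members were taken by symbol from a given list, and all 34 were found, each in a single row, among 41878 gene rows. All 34 also passed the filter on low counts, which left 18030 genes for testing. The cells were HEK293T, an established line of human embryonic kidney origin. They were transfected with 1 µg of an empty control vector or of a TRPML3 plasmid. Before RNA extraction they either stayed in 10% serum (vector fed, TRPML3 fed) or spent 4 h in 0% serum (vector starved, TRPML3 starved). Each of the 4 groups had 3 libraries of polyadenylated RNA, which the labels call biological triplicates. All groups share the line and the transfection reagent, and each library averages over every cell of its culture, transfected or not. In bulk RNA, fewer cells expressing a gene and less RNA per cell cannot be told apart.

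A resting cell keeps calcium low in the cytosol and high in the endoplasmic reticulum. SERCA pumps (ATP2A genes) fill the reticulum, PMCA pumps (ATP2B genes) expel calcium through the plasma membrane, and inositol trisphosphate receptors (ITPR genes) release it. Emptied stores are sensed by STIM proteins, which open ORAI channels, and mitochondria take calcium up through the MCU complex. Raised cytosolic calcium binds calmodulin, which activates CaM kinases and the phosphatase calcineurin. Calcineurin dephosphorylates NFAT transcription factors, which then enter the nucleus. RCAN1 encodes a calcineurin inhibitor whose shorter transcript is itself induced by NFAT, a feedback loop. TRPML3 is encoded by MCOLN3 and conducts cations out of endosomes and lysosomes.

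Library totals ran from 33101540 to 43700547 counts. MCOLN3 lay between 9.31 and 18.4 CPM (counts scaled to a common library total after TMM scaling) in the 6 vector libraries and between 4929 and 58223 CPM in the 6 TRPML3 libraries, so every library matched its plasmid label. All 7 HEK293T markers checked (PAX2, LHX1, VIM, KRT8, KRT18, NEFL and NEFM) were detected in every library, with a summed level of 487 to 960 CPM. Of 7 markers of other cell types, the leukocyte gene PTPRC, the muscle gene DES and the erythroid gene HBB stayed at or below 0.0979 CPM. The fibroblast gene COL1A1 ranged from 0.225 to 20.6 CPM, reaching above PAX2 (0.839 to 5.33 CPM) and LHX1 (1.92 to 14.6 CPM). The astrocyte gene GFAP, the hepatocyte gene ALB and the endothelial gene PECAM1 reached 2.27, 2.05 and 0.494 CPM. The summed level of the 7 was 2.45 to 23.1 CPM. The share of counts from mitochondrial genome transcripts followed the replicate number, with 2.81 to 4.40% for replicate 1, 1.05 to 2.52% for replicate 2 and 4.83 to 5.70% for replicate 3.

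The first question was whether the overexpressed channel altered this gene set. No member passed an adjusted p of 0.05 for TRPML3 against vector, in fed cells (0 of 34, against 0.0111% of all genes tested), in starved cells (0 of 34, against 0.00555%) or for the effect averaged over the serum states (0 of 34, against 0.0111%). The members nearest to a difference were the calcineurin regulators RCAN1 and RCAN3, both higher with TRPML3. Averaged over serum states, RCAN1 had a log2 fold change of 0.51 ± 0.17 SE (1.43-fold, edgeR quasi-likelihood test, unadjusted p = 0.0111, adjusted p = 1) and RCAN3 one of 0.77 ± 0.33 (1.70-fold, unadjusted p = 0.0429, adjusted p = 1). They were the only 2 of 34 members at an unadjusted p under 0.05 for the average effect, against 2.62% of all genes (2 higher against 1.25%, 0 lower against 1.37%). In that comparison 15 members were higher and 19 lower, with a median log2 fold change of -0.021 against -0.011 over all genes.

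**Figure D1:**
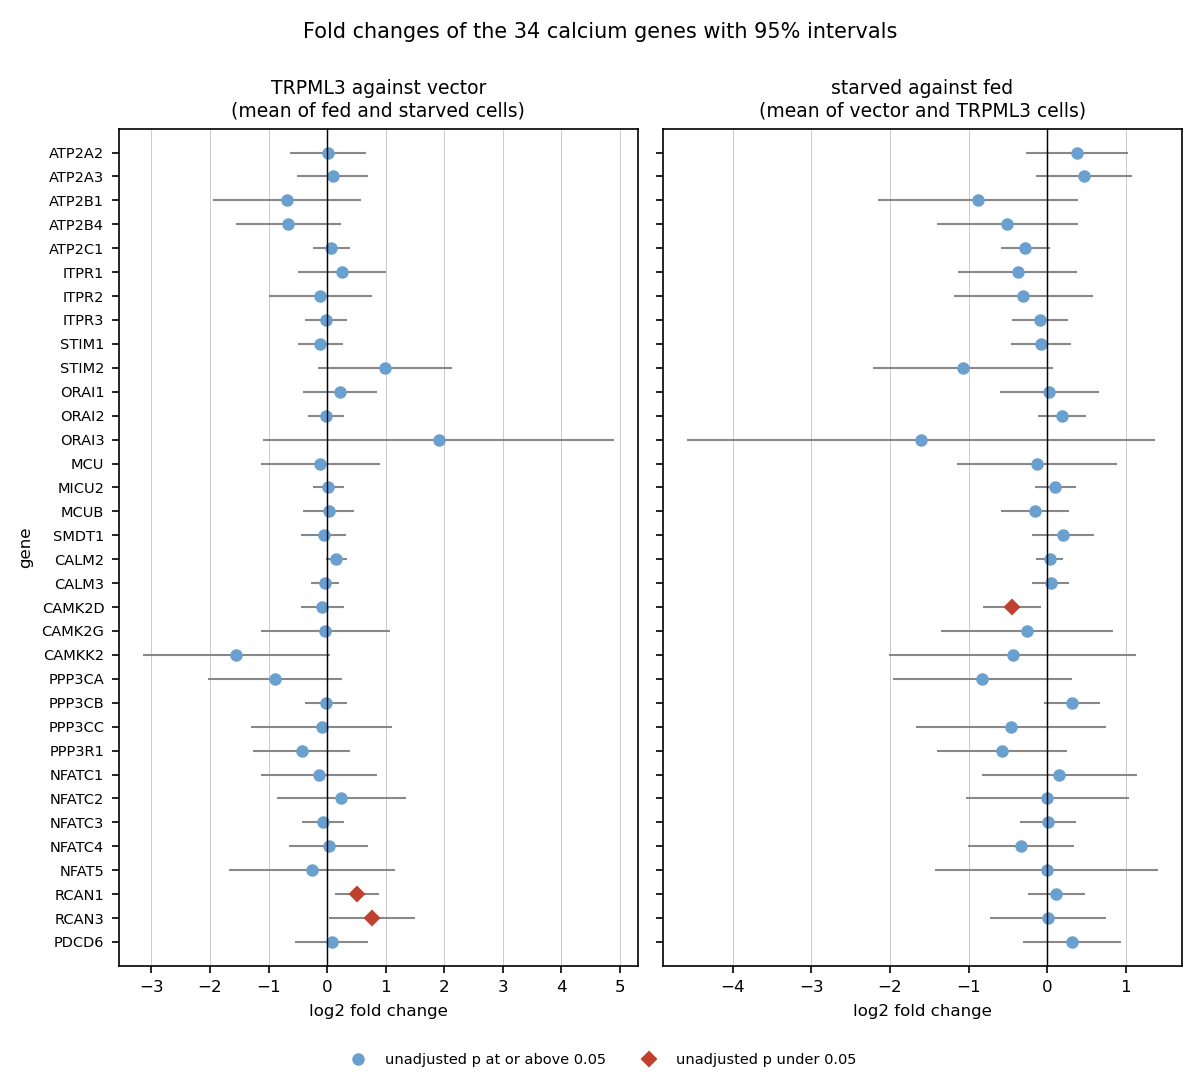
Log2 fold changes (x axis) of the 34 calcium genes (y axis, ordered by role) for TRPML3 against vector, left, and starved against fed, right, from all 12 libraries. Points are estimates, lines are 95% intervals, and red diamonds have an unadjusted p under 0.05: RCAN1 and RCAN3 on the left, CAMK2D on the right.

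RCAN1 (ENSG00000159200) binds calcineurin and inhibits it. In fed cells RCAN1 had 54.1, 56.6 and 48.3 CPM in vector replicates 1, 2 and 3 and 72.9, 65.4 and 76.9 CPM with TRPML3. The 3 fed TRPML3 libraries lay above the 3 fed vector libraries without overlap (2 of 34 members did so, the other being CALM2, against 3.22% of all genes, and 0 lay below without overlap, against 3.87%). Starved cells had 57.6, 61.1 and 45.1 CPM with vector and 93.8, 98.3 and 54.1 CPM with TRPML3. Here replicates 1 and 2 stood above all vector libraries, and TRPML3 replicate 3 fell inside the vector range. The log2 fold change was 0.44 ± 0.24 SE in fed cells (95% interval -0.085 to 0.96, unadjusted p = 0.0925, adjusted p = 1) and 0.59 ± 0.24 in starved cells (95% interval 0.066 to 1.11, unadjusted p = 0.0308, adjusted p = 1). With the replicate number as a block, the fed value was 0.45 ± 0.22 (edgeR quasi-likelihood test, unadjusted p = 0.0682), again not called after adjustment. The average effect with the block was 0.51 ± 0.15 (unadjusted p = 0.00954), also not called after adjustment. Without replicate 1, or without replicate 2, in all 4 groups the average effect was 0.47 and 0.54 (unadjusted p = 0.105 and 0.0582). The unadjusted p of the average effect was under 0.05 in 13 of 15 fits that left out libraries. It was so in 9 of 9 other alternatives. These fits share most of their libraries, and RCAN1 was called in none. An exact two-sided permutation test over libraries, with plasmid labels exchanged within each serum state, gave p = 0.015 for the average effect, where 0.005 is the smallest p that 400 arrangements allow. These arrangements ignore the replicate numbers, although the fed libraries were taken as paired by number. Of the 34 members, 3 had an exact p under 0.05 in that test (RCAN1, CALM2 and CAMKK2, the last near the detection limit). The test was run on the members only, so the share over all genes is not known and the count cannot be set against it. Starvation gave RCAN1 a log2 fold change of 0.12 ± 0.17, within the spread between replicates (unadjusted p = 0.493, adjusted p = 0.886).

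Within each serum state the RCAN1 level had the same order as the MCOLN3 level among the TRPML3 libraries, a pattern chosen after its values were seen. MCOLN3 was at 6211, 4929 and 39972 CPM in fed and at 41362, 58223 and 16896 CPM in starved replicates 1, 2 and 3. Over the 6 libraries Pearson's r on log2 levels was 0.64 (exact permutation p = 0.175, adjusted p = 0.518) and Spearman's rho 0.83 (exact permutation p = 0.0583, adjusted p = 0.438, both over the 34 members). Among all genes tested, 29% had an r over the 6 libraries at least as large in size, so the relation does not single out RCAN1. Without the 2 libraries farthest from the median MCOLN3 level, TRPML3 fed replicates 1 and 2, r was 0.96 over 4 libraries. Other members reached a similar size over the same 4 libraries, such as ATP2A3 (-0.99), NFATC2 (-0.96) and ITPR3 (-0.93). That value does not single out RCAN1 either, and its share over all genes was not computed. Over all 6 libraries only ATP2A2, a pump gene described further on, had a Pearson correlation with MCOLN3 that passed adjustment (1 of 34 members, exact permutation p = 0.00139, adjusted p = 0.0473). That adjustment ran over the 34 members only, and 2.33% of all genes tested correlated with MCOLN3 at least as strongly as ATP2A2. Its order matched that of MCOLN3 in all 6 libraries (Spearman's rho 1, exact permutation p = 0.00278, adjusted p = 0.0945). Its levels fell into 2 separate clusters, so the size of r is not given. Both exact p-values of ATP2A2 are the smallest that 6 libraries allow. These permutations exchanged fed with starved libraries. Both genes had higher estimates in starved than in fed TRPML3 cells (log2 fold change 1.19 ± 0.71 SE for MCOLN3 and 0.68 ± 0.42 for ATP2A2). The correlation therefore does not separate the MCOLN3 level from the serum state.

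Several starts of RCAN1 are annotated, and a count per gene adds their transcripts together. GENCODE release 29 lists 14 RCAN1 transcripts on the minus strand of chromosome 21. The long ones begin near position 34615113. The short ones begin near 34526822, within an intron of 6 longer transcripts, and include the form known to be induced through NFAT. The promoter windows below (RefSeq, GRCh38.p14, 250 bases before the start to 50 after it, printed 5′ to 3′ in gene sense) show how the starts differ in the NFAT core. Capitals mark GGAAA on either strand, which reads TTTCC when it lies on the opposite strand, and overlapping matches are each counted.
RCAN1 long start, chr21:34615064-34615363, minus strand: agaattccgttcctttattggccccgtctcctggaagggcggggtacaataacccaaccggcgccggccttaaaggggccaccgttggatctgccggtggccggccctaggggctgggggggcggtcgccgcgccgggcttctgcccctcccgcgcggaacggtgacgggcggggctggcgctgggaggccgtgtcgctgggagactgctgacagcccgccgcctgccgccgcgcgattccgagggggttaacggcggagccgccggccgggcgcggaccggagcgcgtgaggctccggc
RCAN1 internal start, chr21:34526773-34527072, minus strand: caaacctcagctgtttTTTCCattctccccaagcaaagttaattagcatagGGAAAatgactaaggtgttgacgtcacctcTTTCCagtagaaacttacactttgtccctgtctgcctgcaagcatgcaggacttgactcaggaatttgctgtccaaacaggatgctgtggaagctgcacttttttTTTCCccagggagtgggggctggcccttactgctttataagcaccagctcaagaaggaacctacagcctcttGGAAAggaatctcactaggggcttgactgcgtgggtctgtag
RCAN3 first start, chr1:24502586-24502885, plus strand: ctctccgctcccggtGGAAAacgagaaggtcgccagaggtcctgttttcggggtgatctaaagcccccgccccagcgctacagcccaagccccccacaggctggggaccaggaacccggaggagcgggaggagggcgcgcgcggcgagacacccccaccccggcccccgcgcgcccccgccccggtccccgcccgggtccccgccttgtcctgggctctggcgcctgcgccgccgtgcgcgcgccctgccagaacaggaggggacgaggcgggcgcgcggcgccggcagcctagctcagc
The printed long-start window of RCAN1 held 0 cores and the printed internal window 5, with 2 as GGAAA and 3 as TTTCC. Of the 4 other RCAN1 windows in the table, both further long-start windows held 0 cores, and those of the internal starts at 34525467 and 34524637 held 1 each. At least 1 core is present in 61.2% of all 35116 windows of 300 bases, and at least 5 in 0.74%. Each of the 3 RCAN3 windows in the table held 1 core. Which RCAN1 start gave the higher counts with TRPML3 was not tested, since the values are per gene. None of these 3 windows held the E-box CACGTG, found in 7.26% of all windows and in 3 of the 26 members that have a window. A match of letters does not show that a factor binds there.

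RCAN3 (ENSG00000117602) is a less studied member of the same inhibitor family. In starved cells it had 30.4, 23.7 and 21.2 CPM with vector and 64.0, 59.0 and 59.98 CPM with TRPML3. The groups did not overlap, and RCAN3 was the only member higher without overlap in starved cells (1 of 34, against 3.02% of all genes). The log2 fold change was 1.28 ± 0.48 SE (2.43-fold, unadjusted p = 0.0218, adjusted p = 1). Fed cells had 24.0, 22.5 and 60.4 CPM with vector and 74.6, 24.7 and 28.2 CPM with TRPML3. Each fed group held 1 library at the level of starved TRPML3 cells and 2 at the vector level, and the fed difference was 0.25 (log2). RCAN3 thus lay at 21.2 to 30.4 CPM in 7 libraries and at 59.0 to 74.6 CPM in 5, with no library between. The difference between the serum states was within the replicate spread (interaction 1.03 ± 0.67, unadjusted p = 0.152, adjusted p = 1). With the replicate number as a block the average effect of RCAN3 had an unadjusted p of 0.0573, and without replicate 1 in all groups its log2 fold change was 0.37.

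**Figure D2:**
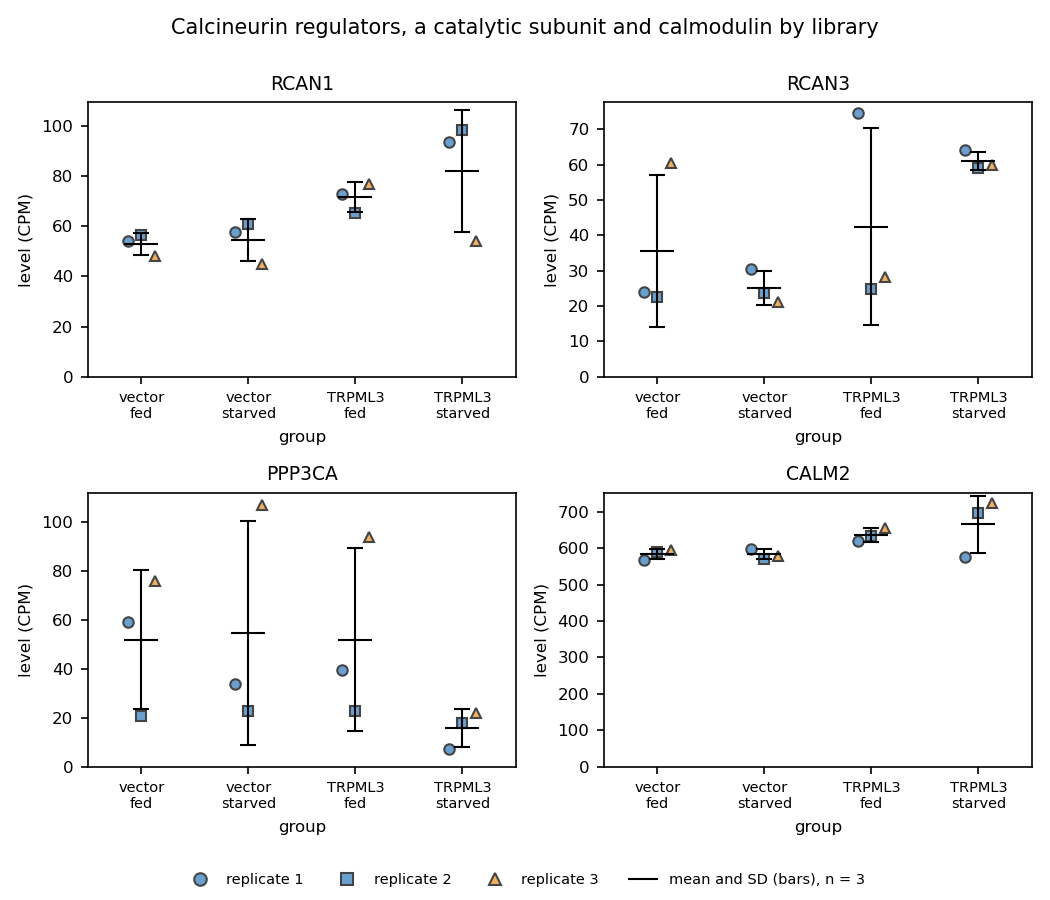
Level in CPM (y axis, from 0) of RCAN1, RCAN3, PPP3CA and CALM2 in the 4 groups (x axis), with 1 symbol per library shaped by replicate number, and mean and SD. RCAN1 with TRPML3 lies above every vector library of its serum state except for starved replicate 3, RCAN3 jumps between a lower and a higher level, and PPP3CA is low in all 3 starved TRPML3 libraries.

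Calcineurin itself consists of a catalytic subunit (PPP3CA, PPP3CB or PPP3CC) and the calcium-binding regulatory subunit PPP3R1. PPP3CA (ENSG00000138814) had 33.8, 22.9 and 107 CPM in starved vector and 7.18, 18.1 and 22.1 CPM in starved TRPML3 libraries. The groups did not overlap, but the highest TRPML3 library lay just under the lowest vector library. It was the only member lower without overlap there (1 of 34, against 3.56% of all genes), with a log2 fold change of -1.79 ± 0.75 SE (unadjusted p = 0.0363, adjusted p = 1). Without vector starved replicate 3 this value was -0.84. In fed cells PPP3CA had 59.4, 20.5 and 75.9 CPM with vector and 39.4, 22.6 and 94.0 CPM with TRPML3, and the groups overlapped fully. Replicate 2 was at 18.1 to 22.9 CPM in every group, the level of the starved TRPML3 libraries. PPP3CB, the evenest catalytic gene, ranged from 46.4 to 89.5 CPM, and its average TRPML3 effect was -0.023 ± 0.16. PPP3CC ranged from 1.51 to 24.2 CPM. PPP3R1 lay between 22.0 and 65.4 CPM in 11 libraries and at 158 CPM in vector fed replicate 3. In starved cells 3 members thus had an unadjusted p under 0.05 (RCAN1 and RCAN3 higher, against 1.09% of all genes, and PPP3CA lower, against 1.11%, with 2.2% in both directions). In fed cells 0 did, against 2.21% (0.998% higher and 1.21% lower).

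Among the NFAT factors none differed between plasmids beyond the replicate spread (average log2 fold changes from -0.26 to 0.24, smallest unadjusted p = 0.635). NFATC3 was the steadiest, with 86.8 to 151 CPM. NFATC1 was at 2.30 and 3.13 CPM in TRPML3 fed replicates 1 and 2 and at 13.5 CPM in replicate 3, while fed vector libraries had 8.95 to 12.3 CPM. NFATC4 ranged from 8.66 to 30.0 CPM. NFAT5, an osmotic-stress factor that calcineurin does not control in the way it controls the others, had 186 and 196 CPM in starved TRPML3 replicates 1 and 3 and only 3.77 CPM in replicate 2. That single library set its 53.1-fold range.

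Calmodulin is encoded by several genes with the same protein sequence. CALM2 (ENSG00000143933) had the smallest replicate spread of all members. It had 568, 590 and 594 CPM in fed vector and 619, 634 and 656 CPM in fed TRPML3 libraries, without overlap. In starved cells it had 598, 572 and 580 CPM with vector and 577, 698 and 724 CPM with TRPML3, so TRPML3 replicate 1 lay among the vector libraries. The average TRPML3 effect was 0.16 ± 0.079 (95% interval -0.018 to 0.33, unadjusted p = 0.0733, adjusted p = 1). CALM3 differed by -0.031 ± 0.11. Of the kinases activated by calmodulin, CAMK2D differed by -0.079 ± 0.17, CAMK2G by -0.027 ± 0.50 and CAMKK2, the kinase upstream of CaM kinases I and IV, by -1.55 ± 0.72 (unadjusted p = 0.0561, adjusted p = 1). CAMKK2 was near the detection limit, at 0 to 1.99 CPM.

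The pumps did not differ between plasmids beyond the replicate spread (smallest unadjusted p = 0.13 for the average effect). ATP2A2, the ubiquitous SERCA2 pump, occupied 2 levels. It lay between 233 and 309 CPM in vector fed replicate 1, vector starved replicate 3 and TRPML3 fed replicates 1 and 2, and between 536 and 642 CPM in the other 8 libraries. Both levels occurred with each plasmid, and the average TRPML3 effect was 0.018 ± 0.29. Among the TRPML3 libraries the lower ATP2A2 level fell in the 2 with the least MCOLN3 (6211 and 4929 CPM). The vector libraries held the lower level in 2 of 6, with MCOLN3 between 9.31 and 18.4 CPM throughout. ATP2C1, the Golgi calcium and manganese pump, differed by 0.072 ± 0.14 (95% interval -0.24 to 0.38). The plasma membrane pump ATP2B1 ranged from 2.95 to 55.7 CPM and ATP2B4 from 8.27 to 117 CPM. The lowest values were TRPML3 starved replicate 3 for ATP2B1 and TRPML3 starved replicate 2 for ATP2B4. ATP2A3, known mainly from blood cells, was at 1.52 to 5.64 CPM.

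Store release and store-operated entry showed no difference that passed either. For the 3 inositol trisphosphate receptors the average TRPML3 effects were 0.25 ± 0.34 (ITPR1), -0.11 ± 0.40 (ITPR2) and -0.014 ± 0.16 (ITPR3). STIM1, the main sensor of store depletion, differed by -0.12 ± 0.17 (95% interval -0.50 to 0.26). STIM2, a sensor for smaller losses, had 2.86, 23.7 and 19.5 CPM in fed vector, 20.2, 20.2 and 25.6 CPM in fed TRPML3, 4.36, 8.96 and 2.48 CPM in starved vector and 16.1, 21.9 and 5.73 CPM in starved TRPML3 libraries. Its average TRPML3 effect was 0.99 ± 0.52 (unadjusted p = 0.0815, adjusted p = 1), and the groups overlapped in both serum states. ORAI2, with 17.2 to 21.9 CPM in all libraries, was among the most even genes of its level (0.1% of the 1000 genes nearest in level had a smaller or equal spread), and its TRPML3 effect was -0.019 ± 0.14. ORAI1, the principal store-operated channel, was at 1.71 to 6.02 CPM. ORAI3 was detected with at most 2.81 CPM and had 0 counts in 4 libraries, each of which allows up to 3 counts, at most 0.0906 CPM.

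The mitochondrial uptake genes differed in how closely their values were bounded. MICU2, a gatekeeper of the uniporter, had 56.9 to 79.95 CPM and a TRPML3 effect of 0.023 ± 0.12 (95% interval -0.24 to 0.28). The small subunit SMDT1 differed by -0.061 ± 0.18 and the inhibitory pore paralogue MCUB by 0.024 ± 0.20. The pore gene MCU ranged from 7.003 CPM in vector starved replicate 1 to 62.3 CPM in vector starved replicate 2, and its effect of -0.12 ± 0.46 is correspondingly loose. PDCD6, a penta-EF-hand calcium sensor of vesicle transport, differed by 0.078 ± 0.28.

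**Figure D3:**
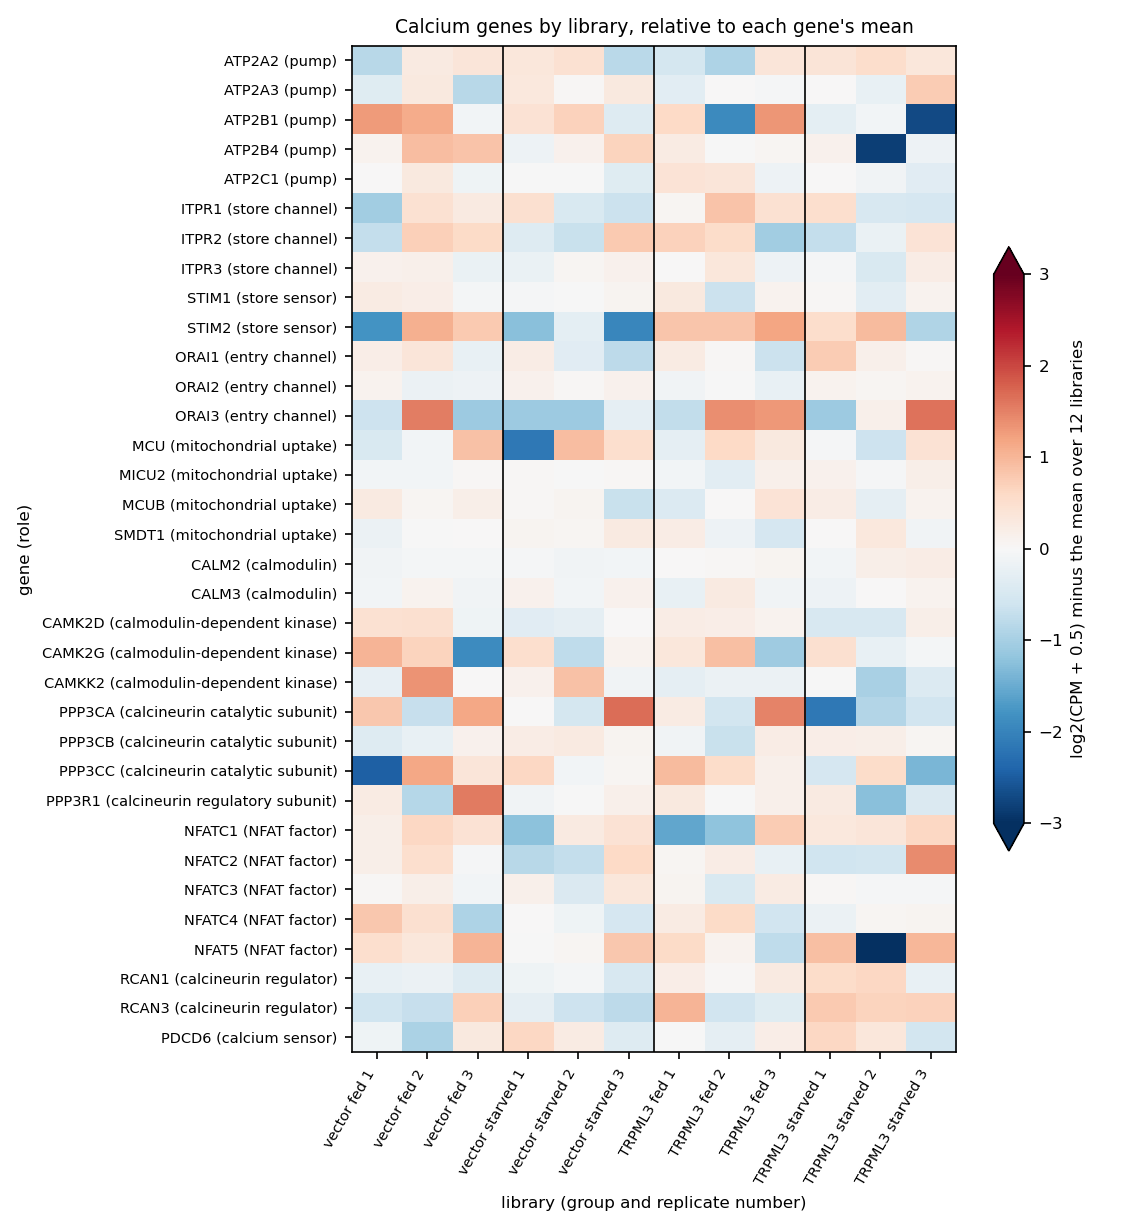
Each row is 1 of the 34 genes and each column 1 of the 12 libraries. Colour shows log2(CPM + 0.5) minus that gene's mean, from blue (lower) to red (higher), cut at 3 in either direction. Single dark blue cells, such as NFAT5 and ATP2B4 in TRPML3 starved replicate 2, stand out more than any block of columns.

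Serum withdrawal was the second comparison. No member passed for starvation in vector cells (0 of 34, against 0.00555% of all genes), in TRPML3 cells (0 of 34, against 0%) or averaged over plasmids (0 of 34, against 0%). At an unadjusted p under 0.05 the counts were 0 of 34 in vector cells (against 2.23% of all genes higher, 2.21% lower and 4.44% in all). In TRPML3 cells 0 members were higher (against 2.74%) and 1, PPP3CA, was lower (against 2.97%, with 5.71% in all). For the average 0 were higher (against 4.66%) and 1, CAMK2D, was lower (against 4.79%, with 9.45% in all). Starved libraries lay above fed ones without overlap for SMDT1 in vector cells (1 of 34, against 5.36%) and for ORAI2 in TRPML3 cells (1 of 34, against 5.56%). They lay below for 0 members in vector cells (against 4.57%) and for PPP3CA in TRPML3 cells (1 of 34, against 5.66%). PPP3CA in TRPML3 cells had a log2 fold change of -1.72 ± 0.75 (unadjusted p = 0.0424, adjusted p = 0.869), with the same 3 starved TRPML3 libraries as in the comparison of plasmids. Without TRPML3 fed replicate 3 its value was -0.98. In vector cells the smallest p belonged to STIM2 (log2 fold change -1.55 ± 0.74, unadjusted p = 0.0614, adjusted p = 1). The median member was at -0.081 for the average effect, against 0.0062 over all genes, with 14 members higher and 20 lower.

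CAMK2D (ENSG00000145349), the calmodulin-dependent kinase II delta chain, was lower in starved cells. It had 121, 123 and 79.5 CPM in fed vector and 68.5, 73.0 and 88.7 CPM in starved vector libraries, and 102, 101 and 93.8 CPM in fed and 62.7, 62.3 and 99.5 CPM in starved TRPML3 libraries. In replicates 1 and 2 every fed library lay above every starved one. Replicate 3 was intermediate in all 4 groups, and its starved libraries were above its fed ones within each plasmid. The average log2 fold change was -0.45 ± 0.17 (unadjusted p = 0.0227, adjusted p = 0.446) and -0.30 without replicate 1. The exact two-sided permutation test with serum labels exchanged within each plasmid gave p = 0.03 for CAMK2D. Of the 34 members, 2 had an exact p under 0.05 in this test, the other being ORAI2 (p = 0.015, higher in starved cells). It too was run on the members only, without a share over all genes.

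Leaving out replicate 3 in all 4 groups changed this comparison. CAMK2D then passed (log2 fold change -0.73 ± 0.093, adjusted p = 0.0259), as did NFATC2 (-1.25 ± 0.20, adjusted p = 0.0348). That is 2 of 34 members, or about the background, since 4.49% of all genes passed in that fit. At an unadjusted p under 0.05 the fit gave 9 members, against 23.3% of all genes: ATP2A2, PPP3CB, RCAN1 and PDCD6 higher, and ATP2C1, ITPR2, CAMK2D, NFATC2 and NFATC4 lower. NFATC2 had 2.00 and 2.65 CPM in fed vector and 1.82 and 2.11 CPM in fed TRPML3 replicates 1 and 2, against 0.759 to 1.02 CPM in the 4 starved libraries of those numbers. In replicate 3 the order was opposite, with 1.66 and 1.40 CPM fed and 2.88 and 5.5 CPM starved. Mitochondrial transcripts took the largest share of counts in replicate 3, and their part in these differences was not tested.

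**Figure D4:**
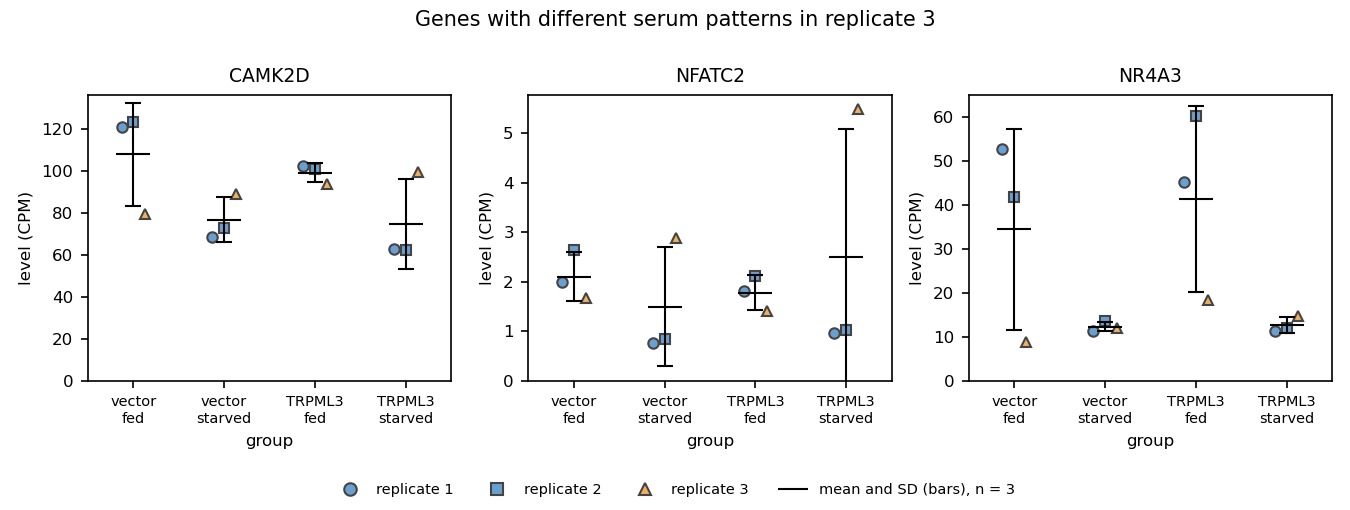
Level in CPM (y axis, from 0) of CAMK2D, NFATC2 and NR4A3 by group (x axis), with symbols shaped by replicate number, orange for replicate 3, and mean and SD (the SD bar of NFATC2 in starved TRPML3 cells is cut at 0). Replicates 1 and 2 (blue) are lower in starved than in fed cells for all 3 genes with either plasmid. Replicate 3 is higher in starved cells for CAMK2D and NFATC2, and for NR4A3 it lies at 8.81 to 18.4 CPM in every group.

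Whether TRPML3 altered the starvation response was tested by the interaction. No member passed (0 of 34, against 0% of all genes) and 0 had an unadjusted p under 0.05, against 2.07% (1.16% higher and 0.915% lower). The smallest p was that of PPP3CA (-1.79 ± 1.03, unadjusted p = 0.112, adjusted p = 1). For RCAN1 the interaction was 0.15 ± 0.33 (95% interval -0.58 to 0.89), so the RCAN1 difference was not shown to depend on serum. MCOLN3 itself was at 4929 to 39972 CPM in fed and at 16896 to 58223 CPM in starved TRPML3 libraries. Its own interaction was 1.72 ± 1.00 (edgeR quasi-likelihood test, unadjusted p = 0.116). The interaction of a member therefore does not separate serum from the amount of MCOLN3.

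Other genes of the pathway were taken from a list of 71 calcium genes, of which 65 were tested. None passed in any of the 7 comparisons. For TRPML3 in fed cells 4 of 65 had an unadjusted p under 0.05 and were higher (against 0.998% of all genes): PIEZO1, a mechanosensitive channel, the mitochondrial genes MCUR1 and VDAC3, and RCN1, a calcium-binding protein of the reticulum (log2 fold changes 2.04 ± 0.77, 0.59 ± 0.21, 0.82 ± 0.25 and 0.54 ± 0.19). CRTC2, a coactivator that calcineurin dephosphorylates, was lower (-1.40 ± 0.62, 1 of 65, against 1.21%). The same 4 were also higher for starvation in vector cells (1.73, 0.54, 0.93 and 0.45), a comparison that shares the fed vector libraries with the first, and RYR3, a ryanodine receptor, was higher too (0.94), making 5 of 65 against 2.23% of all genes, with 0 lower against 2.21%. In starved cells 0 of 65 had an unadjusted p under 0.05 with TRPML3, against 2.2%. Starvation in TRPML3 cells had 3 higher (RYR3 1.24, CRTC2 1.59 and VDAC2 0.61, against 2.74% of all genes) and 0 lower (against 2.97%). The interaction had CRTC2 higher (2.46, against 1.16% of all genes) and PIEZO1 lower (-2.99, against 0.915%). CRTC2 was a low gene, and starved TRPML3 replicate 3 stood apart with 6.57 CPM beside 1.37 and 1.26 CPM in replicates 1 and 2. Fed TRPML3 libraries had 0.840, 0.755 and 1.47 CPM of it. The average TRPML3 effect had VDAC3 (0.48) and RCN1 (0.34) higher (2 of 65, against 1.25%) and 0 lower (against 1.37%). For average starvation RYR3 (1.09 ± 0.30, unadjusted p = 0.00409, adjusted p = 0.363), VDAC3 (0.58) and CACNA1C (0.47) were higher and CAMK4 (-0.48) was lower at that unadjusted level. These are 3 of 65 against 4.66% of all genes higher, and 1 of 65 against 4.79% lower.

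Of a list of 16 genes taken as inducible through calcineurin and NFAT, 11 were expressed enough to be tested, RCAN1 among them. Whether they respond to that pathway, or to it alone, in these cells was not tested. IL2, TNF, CD40LG, FASLG and CSF2, typical of immune cells, were not. For the average TRPML3 effect 8 of the 11 were higher (median log2 fold change 0.22), where 48.1% of all genes were higher with a median of -0.011. RCAN1 alone had an unadjusted p under 0.05 (1 of 11, against 1.25% of all genes higher). That is the RCAN1 result already given above, so the count adds nothing to it. RCAN1 is also 1 of the 8 and part of the median. For average starvation NR4A2, NR4A3 and PTGS2 were lower at an unadjusted p under 0.05 (-1.09 ± 0.42, -1.59 ± 0.41 and -1.51 ± 0.51), with adjusted p of 0.462, 0.349 and 0.407. That is 3 of 11, against 4.79% of all genes lower. Of these, NR4A3 was below that p in vector cells, and NR4A3 and PTGS2 were in TRPML3 cells. NR4A3, an early-response nuclear receptor, had 52.7, 41.8 and 8.81 CPM in fed vector and 45.1, 60.1 and 18.4 CPM in fed TRPML3 libraries, and 11.3 to 14.9 CPM in the 6 starved libraries. Only fed replicates 1 and 2 were high.

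The spread between replicates differed greatly among members. Within groups, the pooled SD on the log2 scale ran from 0.093 (CALM2) to 2.44 (ORAI3), with a median of 0.59, close to the 0.55 of all genes tested. Of the 32 members with at least 3 counts in every library, 11 varied less than 2-fold over all 12 libraries and 11 varied at least 5-fold. The steady ones included CALM2, CALM3, ORAI2, MICU2, SMDT1 and STIM1. Several variable ones were well expressed. Among the 1000 genes nearest in level, NFAT5 had a spread at or above that of 99.3%, ATP2B4 of 91.6%, and ATP2B1 and PPP3CA of 90.8% each. The median standard error of a member's log2 fold change between plasmids was 0.42 in fed cells.

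**Figure D5:**
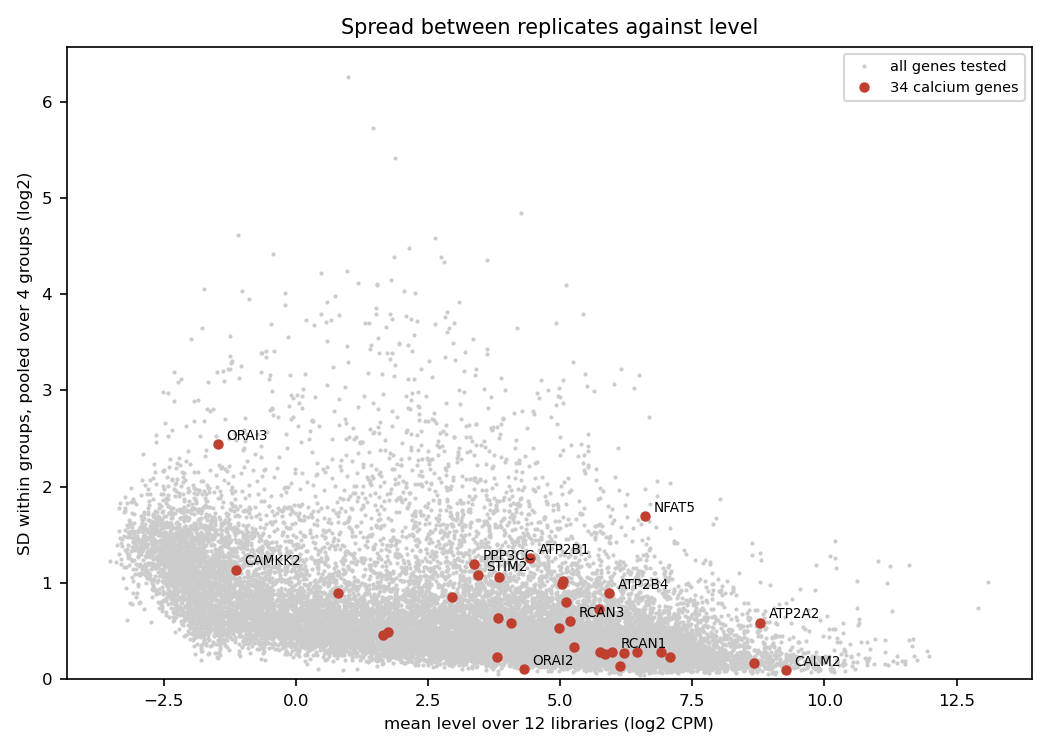
SD of log2 CPM within groups, pooled over the 4 groups (y axis), against mean log2 CPM (x axis). Grey dots are all 18030 genes tested and red dots the 34 calcium genes, of which NFAT5 and ORAI3 have the largest spread and CALM2 and ORAI2 the smallest.

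To compare levels between genes, counts were divided by the length of each gene's merged exons and scaled to a common total per library (TPM) for the 32 members with a GENCODE model. In fed vector cells calmodulin led, with 425 ± 95.5 TPM (SD, n = 3) for CALM3 and 347 ± 50.7 for CALM2. ATP2A2 followed with 126 ± 52.4, and PPP3R1 with 88.1 ± 60.4. Among the catalytic subunits PPP3CB (50.3 ± 6.69 TPM) and PPP3CA (36.3 ± 16.5) were above PPP3CC (18.1 ± 17.5) in mean, and only the libraries of PPP3CA overlapped those of PPP3CC. NFATC3 (54.2 ± 12.8) and NFAT5 (35.3 ± 4.38) were the leading NFAT genes. RCAN1 (29.3 ± 6.45) and RCAN3 (18.4 ± 8.5) overlapped. STIM1 (32.2 ± 7.46) was above STIM2 (8.68 ± 6.81), and ITPR3 (23.4 ± 6.19) had the highest mean of the receptors, though its libraries overlapped those of ITPR2. Neighbours in this order overlapped in 29 of 31 pairs, and the lowest member was CAMKK2 with 0.559 ± 0.611 TPM.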

How the data were processed

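RNA-seq libraries of 12 HEK293T cultures were analysed. Per the submitters' processing notes, FastQC, fastp, HISAT2, StringTie, DESeq2 and GRCh38 were used. Versions, annotation, strand use and the counting step are not given in the sources used here, so reads of overlapping or near-identical genes (the calmodulin genes, PDCD6 and AHRR) may be divided in an unknown way. The deposited raw counts per gene (41878 rows) were used for all main results. The deposited normalized signal, which the authors made by dividing each count by a size factor constant within a library, served 1 alternative.

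Differences were tested with edgeR 4.0.16 in R 4.3.3: filterByExpr on group, TMM, robust quasi-likelihood models of the 12 libraries (8 residual degrees of freedom), and Benjamini-Hochberg adjustment over 18030 genes. CPM values use the TMM-scaled totals. DESeq2 1.42.0 and limma 3.58.1 were alternatives. The code was tested on simulated data with a smaller spread between replicates than in these data. That test therefore does not show how well differences are found here. Intervals cover 95% from the SE and its degrees of freedom. Library totals (at least 33101540 counts) leave counting error small beside the spread between replicates.

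Named members were RCAN1, every member at an unadjusted p under 0.05, and the smallest p per comparison. Others whose library values are given were chosen after their values were seen. The members and lists were chosen with earlier results of these data known. Gene models came from GENCODE release 29, in which 93.9% of identifiers and 32 of 34 members were found (not ORAI1 and NFATC4), and promoter windows from RefSeq (GRCh38.p14), matched by symbol for 26 members.

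To see whether replicate numbers pair the libraries, deviations from group means were correlated over the genes tested. Fed vector and TRPML3 libraries of the same number gave r of 0.11 to 0.33, over 0.1 in 3 of 3 pairs, and were taken as paired. The main models nevertheless held no block for the replicate number, so their fed comparisons are unpaired, and the block was an alternative. Starved pairs gave a similar r of 0.095 to 0.32, over 0.1 in 2 of 3 pairs, and were not taken as paired. That choice rests on the lowest r, just under the cut-off. Fed with starved libraries (highest r 0.0075) were not taken as paired either. No 2 libraries agreed within counting noise (chi-square per degree of freedom at least 109 in 66 pairs).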

Additional observations from a re-analysis of the deposited data

How the results depend on the processing

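With 3 libraries per group and a median standard error of 0.42, only large differences could be resolved. No member was called under any alternative except for average starvation, where leaving out libraries gave 0 to 2 calls (2 without replicate 3, against 4.49% of all genes). DESeq2's Wald test also called 0 members in every comparison. Counts of members at an unadjusted p under 0.05 moved as follows. For TRPML3 in starved cells, with 3 in the main analysis, DESeq2's Wald test gave 4 (STIM2 added), the replicate block 4 (ORAI1 added), and library size only, limma and a fit to the starved libraries alone 2 each. The shares of all genes in these 5 alternatives were 3.24%, 2.47%, 2.46%, 2.49% and 2.18%, beside 2.2% in the main analysis. Library size only moved the median of all genes there to -0.11 (log2). DESeq2's Wald test gave 1 for starvation in vector cells (against 6.21% of all genes), 4 for average TRPML3 (against 3.78%) and 3 for average starvation (against 12.1%). The replicate block gave 2 for TRPML3 cells under starvation (against 6.64% of all genes) and 2 for the interaction (ORAI1 and NFATC1, against 2.14%). It gave 1 for average TRPML3 (against 3.02%) and 2 for average starvation (against 10.3%). The block changed no call of a member at an adjusted p. Its pairing is taken to hold for fed cells only. Limma on the authors' normalized values gave 0 for starvation in TRPML3 cells (against 6.46% of all genes). A fit to the fed libraries alone gave 1 for TRPML3 in fed cells (RCAN1, against 2.32%). Leaving out libraries gave 0 to 1 for TRPML3 in fed cells (against 2.1 to 4.1% of all genes in the same fits). In starved cells it gave 0 to 4 (against 1.98 to 4.1%, with 0 members without vector starved replicate 3). The counts were 0 to 5 for starvation in vector cells (against 2.29 to 14.5%) and 0 to 7 in TRPML3 cells (against 3.01 to 16.1%). For the interaction they were 0 to 1 (against 1.99 to 4.01%), for average TRPML3 0 to 4 (against 2.45 to 4.59%) and for average starvation 0 to 9 (against 4.35 to 23.3%). The highest counts for starvation in vector cells, in TRPML3 cells and on average all came without replicate 3, where the share of all genes was also highest. The RCAN1 starvation difference, not distinguishable from 0, reversed to -0.0056 in vector cells with library size only. Leaving out libraries it ranged from -0.045 to 0.17 in vector cells, from -0.030 to 0.48 in TRPML3 cells, from -0.037 to 0.37 for the interaction and from -0.012 to 0.30 on average. The average TRPML3 effect on RCAN1 stayed positive, at 0.44 to 0.63 leaving out libraries and 0.42 to 0.52 in the 9 other alternatives. The cause of these movements was not tested, beyond fewer libraries in the fits that leave some out.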

Other observations

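PDCD6 and AHRR, which encodes a repressor of the aryl hydrocarbon receptor, overlap on the plus strand of chromosome 5 in GENCODE release 29 (PDCD6 at chr5:271621-353856, AHRR at chr5:304176-438291). The PDCD6 level varied 3.02-fold and the AHRR level 8.31-fold over the 12 libraries, while their sum varied 1.84-fold, from 30.7 to 56.4 CPM. PDCD6 was lowest in vector fed replicate 2, with 16.2 CPM beside 23.4 CPM of AHRR, and AHRR was highest in TRPML3 starved replicate 3, with 35.2 CPM beside 21.2 CPM of PDCD6. How reads shared by the overlapping rows were assigned is not given in the sources used here.

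The lowest values of the members were unevenly divided among libraries, but the same count was not made over all genes. It therefore describes the libraries as much as the members. Vector starved replicate 3 and TRPML3 starved replicate 2 each held the lowest value for 6 of the 34 members, and TRPML3 fed replicate 2 for 5. Each of these libraries also held the highest value for 3 or 4 members, and TRPML3 starved replicate 3 held it for 5. ORAI3, with 0 counts in 4 libraries, was counted as lowest in vector fed replicate 3 only.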
